A study of Mus musculus with 4 samples.

Results

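The Tafa genes encode a family of small secreted proteins, and all 5 mouse members (Tafa1, Tafa2, Tafa3, Tafa4 and Tafa5) were found by symbol among the 32285 genes of the matrices. Their RNA was followed through single nuclei of the lateral septum (LS), a forebrain region of mainly GABAergic neurons, in 4 droplet libraries of 3 pooled male mice each. The 2 wildtype libraries came from C57BL/6JNifdc mice and are called C57J 1 and C57J 2. The other libraries were 1 of BALB/c mice and 1 of nude mice, which have the BALB/c background and lack T cells through mutation of Foxn1. All mice were 6 to 8 weeks old, and no treatment is named in the labels. C57J 1 was labelled batch 1 and the other libraries batch 2, so the nude and BALB/c libraries had 1 C57J library beside them in their own batch. Nude and BALB/c had 1 library each, and no difference between these strains could be tested.

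TAFA proteins, also known as FAM19A, resemble chemokines in their conserved cysteines and are made mostly in the brain. Several members bind neurexins, the presynaptic adhesion proteins, while still inside the secretory pathway. Single members have also been tied to cell surface receptors: TAFA1 to GPR1, TAFA4 to the formyl peptide receptor FPR1 and to LRP1, and TAFA5 to the sphingosine 1-phosphate receptor S1PR2. TAFA2 is known for its part in neuron survival and memory, and TAFA4 marks a class of touch-sensitive sensory neurons.

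The members sat on 4 chromosomes of the mm10 assembly, and their gene models differed widely in length. Tafa1 lay on the plus strand of chromosome 6 (chr6:96113154-96657198, 544 kb), and Tafa4 followed it 174 kb downstream on the minus strand (chr6:96831203-97060413, 229 kb). Tafa2 spanned 477 kb of chromosome 10 (chr10:123263996-123741204, plus strand) and Tafa5 spanned 215 kb of chromosome 15 (chr15:87544299-87759364, plus strand). Tafa3 was the shortest, at 14.4 kb (chr3:104767406-104781840, minus strand). The annotation of that assembly still called them Fam19a1 to Fam19a5, and all were protein-coding.

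The start sites of Tafa1 and Tafa5 are shown here, since across the LS neuron subclusters below Tafa1 was the most unevenly and Tafa5 the most evenly expressed member. Both are plus-strand windows of 300 bases from RefSeq on GRCm38.p6, with every CpG in capitals, at chr6:96112904-96113203 for Tafa1 and at chr15:87544049-87544348 for the first start of Tafa5.
Tafa1: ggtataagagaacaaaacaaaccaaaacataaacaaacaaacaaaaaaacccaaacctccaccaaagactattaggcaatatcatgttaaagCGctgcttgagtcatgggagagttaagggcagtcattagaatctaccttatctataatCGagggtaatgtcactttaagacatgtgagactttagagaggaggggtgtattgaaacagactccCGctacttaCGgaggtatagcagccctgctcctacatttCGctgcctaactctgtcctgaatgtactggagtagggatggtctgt
Tafa5: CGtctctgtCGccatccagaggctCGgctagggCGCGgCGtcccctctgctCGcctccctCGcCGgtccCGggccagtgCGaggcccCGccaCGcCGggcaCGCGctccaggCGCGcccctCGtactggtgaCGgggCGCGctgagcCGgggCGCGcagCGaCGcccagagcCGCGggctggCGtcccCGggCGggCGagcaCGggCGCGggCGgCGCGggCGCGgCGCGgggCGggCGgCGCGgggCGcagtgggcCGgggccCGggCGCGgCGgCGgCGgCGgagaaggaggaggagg
The Tafa1 window held 5 CpG at 42% GC, against a median of 7 CpG and 52.7% GC over 32851 such windows, and 43.6% of windows held no more CpG than that. The Tafa5 window held 56 CpG at 83.7% GC, which 0.195% of windows reached. Its second start held 47 CpG, and the windows of Tafa2, Tafa3 and Tafa4 held 8, 11 and 17. These are counts of letters and say nothing of methylation, which was not measured.

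The 4 libraries held 72912922 to 125998527 unique molecular identifiers (UMIs, 1 per captured RNA molecule) in 12558 to 17025 barcodes, with BALB/c the deepest per nucleus (median 8836 UMIs, against 4429 to 5081). After quality limits and removal of predicted doublets, which were 9.66% to 11.9% of each library, 49425 nuclei remained. Pairs of libraries shared 29 to 63 barcodes, at most 0.478% of the smaller library. Clusters were named from marker genes and each name stands for a likeness in markers (LS neuron-like and so on): 21298 LS neurons, 9946 other neurons, 7281 astrocytes, 5299 oligodendrocytes, 1917 oligodendrocyte precursor cells (OPCs) and 1370 microglia, with smaller classes of neuroblasts, endothelial nuclei, dividing nuclei and newly forming oligodendrocytes. Each neuron, astrocyte, oligodendrocyte, microglia and endothelial marker was highest in its own class, as were 5 of 6 OPC markers but 3 of 6 neuroblast markers.

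Levels are counts per 1000000 (CPM): the UMIs of a gene per 1000000 UMIs of a class in 1 library. Strings of 4 levels give C57J 1 and C57J 2 first, then nude, then BALB/c, and mean ± SD is over these libraries. Nuclei of a class are not replicates, and the classes come from the same nuclei, so the levels across classes are a description. Tafa1 was at 714, 737, 796 and 785 CPM in LS neurons (758 ± 38.8, n = 4) and at 331, 403, 548 and 384 in other neurons (416 ± 92.7, n = 4). Every library was higher in LS neurons, by 1.87-fold ± 0.310 (SD, n = 4; range 1.45 to 2.16). OPCs reached the LS neuron mean, at 501, 501, 633 and 1318 (738 ± 391, n = 4), with BALB/c far above the other libraries. Astrocytes (194 ± 55.3), microglia (192 ± 87.5) and oligodendrocytes (148 ± 82.7) were lower in every library than LS neurons.

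Tafa2 did not separate the neuron classes. LS neurons were at 339, 333, 415 and 441 CPM (382 ± 54.1, n = 4) and other neurons at 398, 341, 385 and 481 (401 ± 58.8, n = 4), which overlapped. OPCs held the most Tafa2, at 559, 546, 883 and 1011 (750 ± 234, n = 4), above every library of every other class and 1.93-fold ± 0.334 above LS neurons. Astrocytes had the least, at 93.6 ± 47.2.

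Tafa4 RNA was concentrated in OPCs, the dividing glia that give rise to oligodendrocytes. Its level there was 87.3, 65.9, 61.7 and 83.1 CPM (74.5 ± 12.6, n = 4), against 2.99, 3.36, 4.75 and 3.18 in LS neurons (3.57 ± 0.802, n = 4). The ratio was 22.0-fold ± 7.20 (range 13.0 to 29.2), and no library of any other class reached the lowest OPC library. OPCs made up 3.56% to 4.56% of the nuclei of a library and held 40.2%, 31.3%, 22.8% and 48.2% of its Tafa4 UMIs. LS neurons, at 41.0% to 48.4% of the nuclei, held a mean of 47.0%. In newly forming oligodendrocytes, the next step of the lineage, Tafa4 was at 0 in 3 libraries and at 3.81 CPM in C57J 2, though this class had 206 nuclei.

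Tafa5 was the most even member. It was at 267, 263, 271 and 332 CPM in LS neurons (283 ± 32.4, n = 4) and at 158, 160.1, 182 and 197 in other neurons (174 ± 18.5, n = 4). Every library was higher in LS neurons, by 1.63-fold ± 0.0960 (SD, n = 4). Oligodendrocytes (249 ± 27.3) and OPCs (255 ± 13.6) stood close below LS neurons and overlapped them, and newly forming oligodendrocytes had the highest mean, 342 ± 87.8. Microglia had the lowest, 76.9 ± 27.3. The class means spanned 4.44-fold, against 7.61-fold for Tafa1, 8.01-fold for Tafa2 and 78.1-fold for Tafa4.

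Tafa3 had 1 UMI in the nude library over all barcodes, 0 in the other libraries, and 0 in the nuclei kept. A count of 0 allows up to 0.0379, 0.0497, 0.0448 and 0.0292 CPM (3 counts in each library, counting error only), and Tafa3 was not detectable above that.

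**Figure D1:**
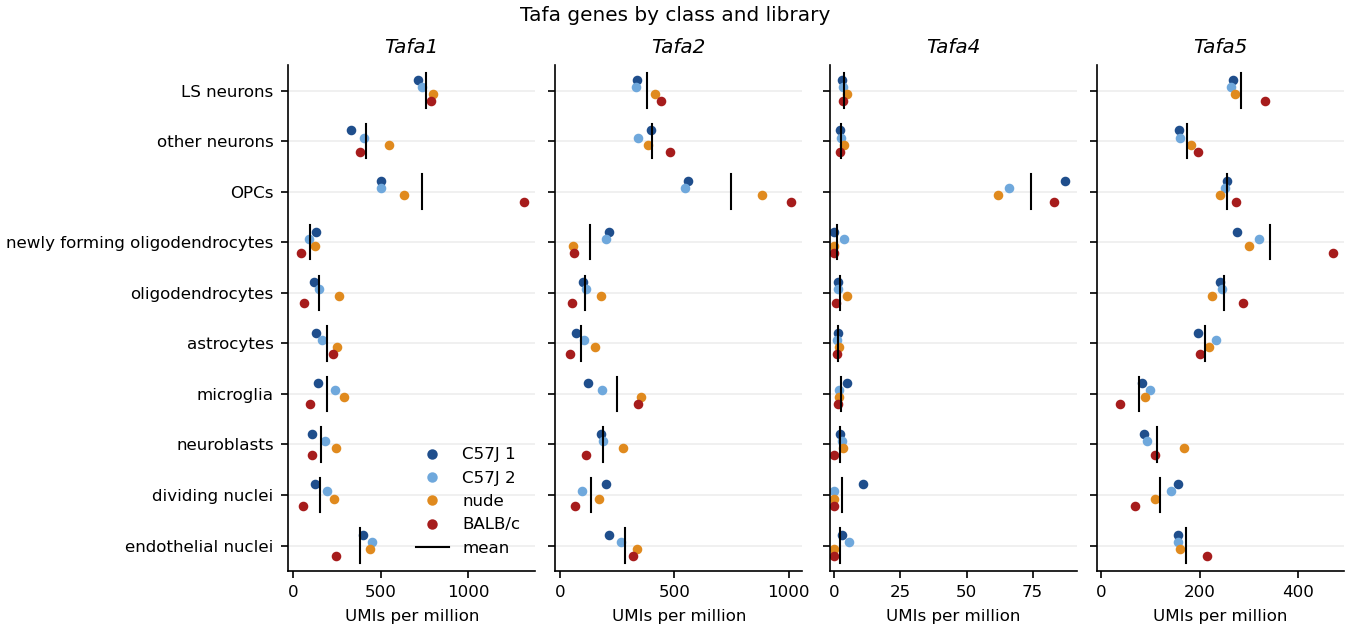
Level of each detected Tafa gene (x axis, CPM, linear, a separate scale per gene) in 10 classes (y axis), with 1 point per library and a line at the mean of the 4 libraries. Tafa4 stood apart in OPCs at 61.7 to 87.3, Tafa2 was highest in OPCs, and Tafa5 spread over neurons and the oligodendrocyte lineage.

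Levels of different genes were also set side by side per length. A UMI stands for 1 captured RNA molecule, so scaling by length was a choice. Unscaled, Tafa2 (382) stood above Tafa5 (283) in LS neurons. Per kb of gene length, introns included, LS neurons held 1.39 ± 0.0713 CPM of Tafa1, 1.32 ± 0.150 of Tafa5, 0.80 ± 0.113 of Tafa2 and 0.0156 ± 0.00350 of Tafa4. On this scale Tafa1 and Tafa5 overlapped, and Tafa4 was far below the rest. In OPCs the same quantity was 1.57 ± 0.490 for Tafa2, 1.36 ± 0.719 for Tafa1, 1.18 ± 0.0631 for Tafa5 and 0.325 ± 0.0550 for Tafa4. The order depends on the length used. Per kb of exon, Tafa1 stood above Tafa5 in LS neurons without overlap, at 179.9 ± 9.21 against 97.4 ± 11.1 CPM, and in OPCs its mean of 175 ± 92.9 passed the 159.9 ± 49.8 of Tafa2, with overlapping libraries. Of the 4 members detected, Tafa4 was lowest in both classes on either scale.

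Some of the glial signal moved with neuronal RNA. The summed level of 5 neuron markers (Snap25, Syt1, Rbfox3, Meg3 and Rbfox1) was 23691 to 24936 CPM in LS neurons and 4520, 5279, 7074 and 2304 in oligodendrocytes. Tafa1 in oligodendrocytes followed the same order over the libraries, at 119, 147, 262 and 66.0, highest in nude and lowest in BALB/c. Tafa2 did as well, at 100.3, 113, 182 and 52.0. Tafa5 did not, at 240.2, 245, 225 and 288, with its highest value in BALB/c, the library with the least neuronal RNA. Endothelial nuclei, where Tafa1 was at 384 ± 93.8, had a neuron marker sum of 12035 to 16575. None of the 5 markers was at 0 in any library of these classes. The part of free neuronal RNA in these levels was not tested.

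LS neurons held more UMIs per nucleus (median 7888.5) than OPCs (3091), astrocytes (2545) and oligodendrocytes (2337). Shares of nuclei were therefore compared after thinning each nucleus to 1000 UMIs, which left out 415 of 49425. Thinning also takes out any difference in RNA content between the classes. Tafa1 UMIs were then found in 23.6% of LS neurons (exact 95% interval 23.1 to 24.2; 53.2% before thinning), in 43.5% of OPCs (41.3 to 45.8; 73.4% before) and in 13.4% of oligodendrocytes (12.5 to 14.4; 27.0% before). The oligodendrocyte share served as the background for a class with little of the gene. For Tafa4 the shares were 6.74% of OPCs (5.65 to 7.95; 19.8% before) and 0.300% of LS neurons (0.231 to 0.384; 2.08% before), with 0.172% of oligodendrocytes. Tafa5 was found in 22.9% of LS neurons (78.4% before), 20.9% of OPCs and 20.6% of oligodendrocytes, but in 7.09% of microglia. These intervals cover counting error only.

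At that depth, 14.4% of LS neurons and 35.4% of OPCs held UMIs of at least 2 members. Among LS neurons, 8538 nuclei held UMIs of 1 member, 2692 of 2, 373 of 3 and 5 of 4.

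Within LS neurons, 25 subclusters were described, each named by 2 signature genes that stood highest in it against the other subclusters. Tafa1 was the most uneven member here. It stood at 6214, 7180, 7258 and 6824 CPM in the Nts Sst subcluster (6869 ± 476, n = 4; LS24, 360 nuclei), which carries the neuropeptide genes for neurotensin and somatostatin. It stood at 4717, 5173, 4886 and 5229 in the Chat Dach2 subcluster (5001 ± 242, n = 4; LS3, 1432 nuclei), led by the transcription factor gene Dach2 and the CRH receptor gene Crhr2. Both stood clear of all other subclusters and of each other in every library. The next in mean was the Esr1 Otx2os1 subcluster at 917, 847, 808 and 756 (832 ± 67.7, n = 4), with the estrogen receptor gene Esr1. The Col6a3 Grid2ip subcluster overlapped it, at 826 ± 158. Nts Sst exceeded Esr1 Otx2os1 by 8.32-fold ± 1.05, and Chat Dach2 exceeded Esr1 Otx2os1 by 6.06-fold ± 0.725.

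These 2 subclusters, 3.42% to 4.05% of the nuclei of a library, held 45.2%, 49.0%, 43.3% and 47.8% of all Tafa1 UMIs. The lowest subcluster was at 40.8 ± 14.5, so the means spanned 168-fold. After thinning, Tafa1 UMIs were in 81.4% of Nts Sst nuclei (exact 95% interval 77.0 to 85.3) and 85.1% of Chat Dach2 nuclei (83.1 to 86.9) but in 2.84% of the nuclei of the lowest subcluster (1.48 to 4.91). The subclusters were made without the Tafa genes or the genes of their partners. In the Nts Sst subcluster, Tafa2 was low in both backgrounds, with a mean level of 76.6 in the C57J libraries and 115 in nude and BALB/c.

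Tafa2, Tafa4 and Tafa5 all peaked in 1 subcluster, Col6a3 Grid2ip (LS12, 808 nuclei), led by Mob3b, Stac2 and the collagen gene Col6a3. Tafa2 was at 1778, 1606, 1599.7 and 1483 CPM there (1616 ± 122, n = 4), followed by the Pth2r Calcr subcluster at 1258, 1270.0, 1140.4 and 1121 (1197 ± 77.6, n = 4). The libraries of both did not overlap, and the ratio was 1.35-fold ± 0.0705. Lower in mean and overlapping with one another came a Calcr Otx2os1 subcluster with Spag16 among its leading genes (1074 ± 196), Angpt1 Pax6 (1024 ± 118) and Esr1 Otx2os1 (914 ± 89.2), of which the Calcr Otx2os1 and Angpt1 Pax6 subclusters also overlapped Pth2r Calcr. The lowest was C1ql3 Foxp2 at 36.1 ± 21.5, and the means spanned 44.7-fold.

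Tafa4 was at 35.4, 27.7, 55.0 and 32.1 CPM in Col6a3 Grid2ip (37.5 ± 12.02, n = 4) and at 15.5, 20.8, 18.4 and 24.6 in Cpa6 Sall3 (19.8 ± 3.84, n = 4). These subclusters did not overlap each other or the remaining 23, whose means did not pass 5.30. Tafa4 UMIs were nonetheless rare after thinning, in 19 of 808 Col6a3 Grid2ip nuclei (2.35%, exact 95% interval 1.42 to 3.65), and the OPC level was higher in every library.

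Tafa5 was at 667, 653, 644 and 754 CPM in Col6a3 Grid2ip (680 ± 50.2, n = 4) and at 444, 468, 483 and 594 in Cpa6 Sall3 (497 ± 66.6, n = 4). The ratio was 1.38-fold ± 0.0998, and the lowest subcluster, Etv1 Ddr2, was at 139 ± 18.2, so that the means spanned 4.88-fold. In Col6a3 Grid2ip, 51.2% of thinned nuclei held UMIs of at least 2 members, against 30.7% in Chat Dach2 and 15.0% in Nts Sst. In the order by level, 21 of 24 neighbouring pairs of subclusters overlapped for Tafa1, 22 for Tafa2, 22 for Tafa4 and 23 for Tafa5, so most of the order could not be resolved.

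**Figure D2:**
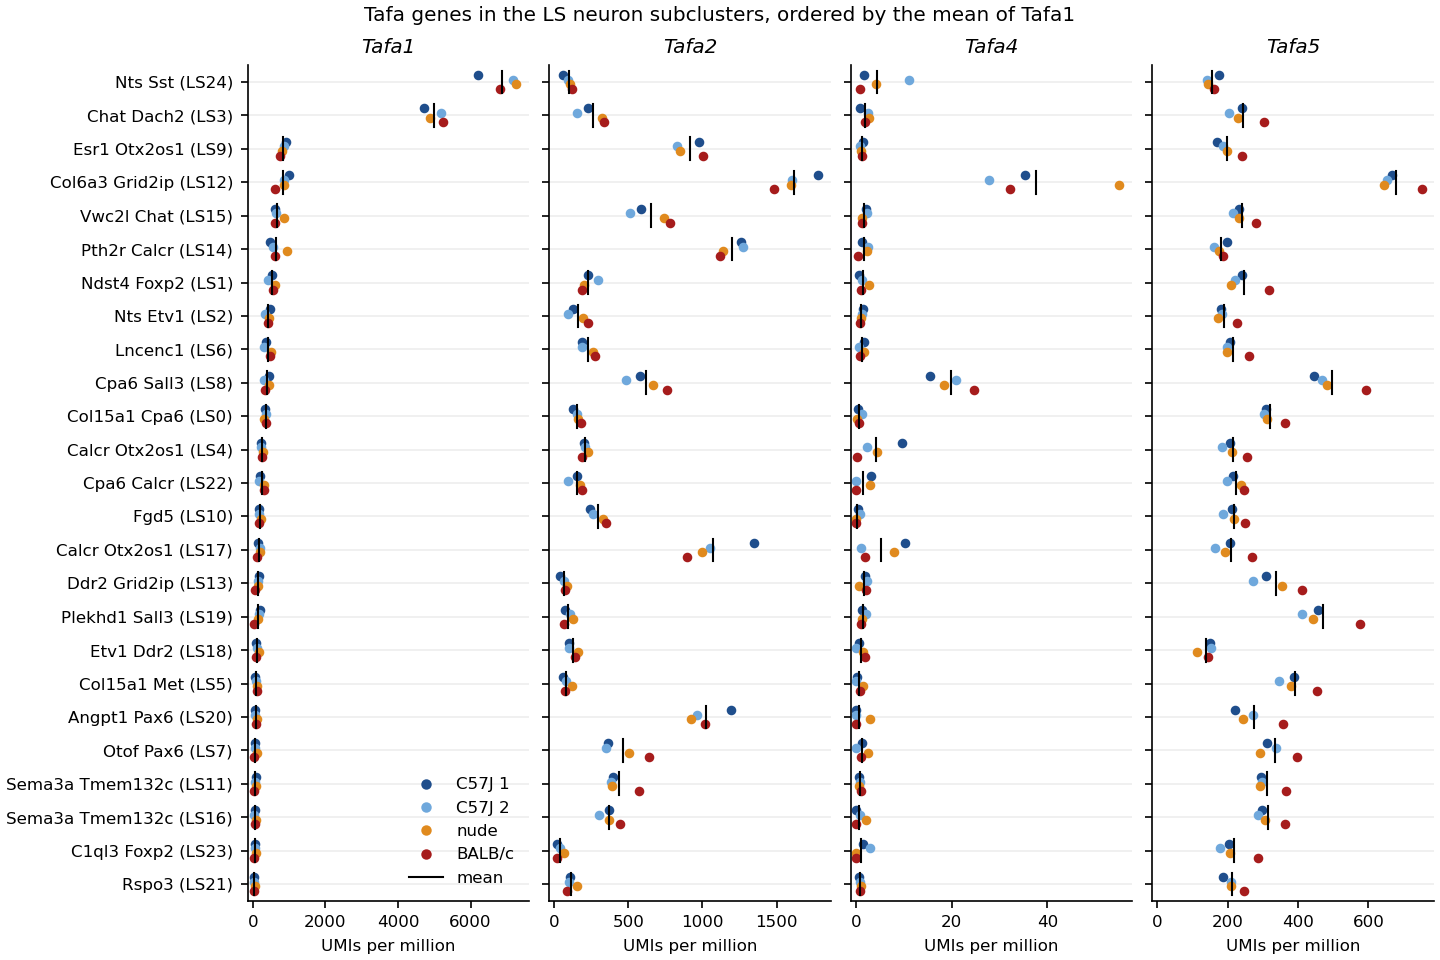
Level of each detected Tafa gene (x axis, CPM, linear, a separate scale per gene) in 25 LS neuron subclusters (y axis, ordered by mean Tafa1), with 1 point per library and a line at the mean. Tafa1 stood out in Nts Sst and Chat Dach2, and Tafa2, Tafa4 and Tafa5 were each highest in Col6a3 Grid2ip.

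Across the 25 LS subclusters, the log2 levels of the members were weakly related. Pearson's r was 0.50 for Tafa4 with Tafa5, 0.41 for Tafa2 with Tafa4, 0.38 for Tafa1 with Tafa4, 0.19 for Tafa1 with Tafa2, 0.18 for Tafa2 with Tafa5 and -0.18 for Tafa1 with Tafa5. The points share their libraries and differ in depth, and these values are a description. Over 39 neuron groups, the genes with the most similar pattern among 9157 were Suclg2 (r = 0.76), Usp38 (0.63) and Senp5 (0.62) for Tafa1. Suclg2, a subunit of succinyl-CoA ligase, is also on chromosome 6, 394 kb away, with 0 protein-coding genes between. They were Timm22 (0.61), Slc16a7 (0.60) and Lsm14a (0.59) for Tafa2, and Slc16a7, a monocarboxylate transporter gene, is on chromosome 10, 1478 kb away, with 0 protein-coding genes between. They were Urgcp (0.62), Arrb1 (0.59) and Acss1 (0.57) for Tafa4 and Phactr2 (0.83), Pdlim7 (0.71) and Spns2 (0.71) for Tafa5, none on the chromosome of the member.

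Outside the LS neurons, Tafa1 was low in striatal Drd1 neurons (73.4 ± 24.8 CPM), striatal Drd2 neurons (69.4 ± 46.2) and cholinergic neurons (54.8 ± 33.9). It was at 3297, 3578, 3725 and 2752 in an unnamed neuron cluster led by Bnc2 and Chst8 (3338 ± 429, n = 4; 436 nuclei). Tafa2 was more widely shared, at 270.4 ± 56.7 in striatal Drd1 neurons, 327 ± 23.9 in striatal Drd2 neurons, 337 ± 127 in Lhx6 GABAergic neurons and 418 ± 74.8 in Slc17a6 glutamatergic neurons. Cholinergic neurons had less, 131 ± 19.1. Tafa5 ranged from 89.4 ± 20.0 in Slc17a6 glutamatergic neurons to 183 ± 36.6 in Lhx6 GABAergic neurons among the named classes, and was at 206 ± 19.0 in the unnamed neurons together.

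Within the Lhx6 GABAergic neurons, 1 cluster stood apart in BALB/c and enters the values of that class. Led by Adarb2 and Sox6, with 455 nuclei, this cluster had Tafa2 at 560.1, 488, 411 and 1223 CPM and Tafa1 at 165, 146, 196 and 548, so that BALB/c stood above the other libraries for both genes while nude did not. With 1 BALB/c library this was not tested.

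The study set its C57J mice against BALB/c and nude mice, and the Tafa genes were compared between 2 C57J libraries and the nude and BALB/c libraries together. Each class was fitted across all its genes with edgeR's quasi-likelihood test, and a call needed an adjusted p under 0.05 (Benjamini-Hochberg over all genes tested) and an absolute log2 difference over 0.5. In LS neurons 0 of 4 tested Tafa genes were called, where 2.19% of 18738 genes were. An unadjusted p under 0.05 was reached by 2 of the 4, Tafa1 and Tafa2, and by 2749 of the 18738 genes. DESeq2 called 0, although the adjusted p of Tafa2 was 0.00730 by DESeq2, with a log2 difference of 0.38 that missed the limit on size. In summed nuclei, a higher or lower level can reflect the number of expressing nuclei or the RNA per nucleus, and these cannot be told apart. The mix of subclusters also enters a level over all LS neurons. Col6a3 Grid2ip, with the most Tafa2, had 140, 170, 268 and 230 of the 5431, 5124, 6271 and 4472 LS neurons. The part of this mix in the Tafa2 level was not tested.

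The Tafa2 values in LS neurons given above, 339 and 333 in C57J against 415 and 441 in nude and BALB/c, did not overlap. The log2 difference was 0.37 ± 0.073 (SE), with an adjusted p of 0.0578 by edgeR, and within batch 2 the log2 ratio of levels was 0.36. Such non-overlapping libraries, higher in nude and BALB/c, were found for 19.1% of genes in LS neurons. Tafa1 also did not overlap (log2 difference 0.15 ± 0.061, adjusted p = 0.333 by edgeR). Tafa5 did not overlap either (0.21 ± 0.11, adjusted p = 0.459 by edgeR), but nude, at 271, lay next to the 267 and 263 of C57J and only BALB/c, at 332, stood apart. Tafa4 overlapped (0.34 ± 0.25, adjusted p = 0.625 by edgeR).

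The Tafa2 difference was not the same in all LS subclusters. A test of the subcluster by background interaction passed for Tafa2 (edgeR F = 3.97 on 24 degrees of freedom, adjusted p = 0.000224), as it did for 3.85% of 13586 genes. It did not pass for Tafa1 (0.0892), Tafa5 (0.572) or Tafa4 (0.867). The library was a block in this test, so its p-values measure the spread of subclusters within libraries. The Tafa2 call rested on both C57J libraries: the adjusted p was 0.119 without C57J 1 and 0.252 without C57J 2. The outcome for Tafa1 changed without nude and without BALB/c, in fits that left 1 library beside C57J. The 3.85% is not the share of genes for these fits. Their own shares are not given here, so the change says nothing particular to Tafa1. Between the 6 main classes, the difference did not pass for any of the 4 members (adjusted p from 0.955 to 1 by edgeR), where 0.395% of 16194 genes passed. Without the nude library the outcome changed for Tafa1, Tafa2 and Tafa5. That fit left 1 library beside C57J, and the 0.395% is not its share of genes. Its own share is not given here, so the change says nothing particular to these members.

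In 13 of 25 LS subclusters the nude and BALB/c levels of Tafa2 both exceeded the C57J levels, in 4 both were lower, and in 8 the backgrounds overlapped. Over all gene and subcluster pairs at 10 or more CPM, 17.7% were higher and 22.1% lower in this sense. The median gene was higher in 3 subclusters and lower in 4, and 6.61% of 7227 genes were higher in at least 13. The highest log2 ratio was in the Nts Etv1 subcluster, at 124, 90.7, 192 and 226 CPM, a ratio of 0.96 (1.20 within batch 2). Chat Dach2 followed, at 225, 156, 322 and 338 (0.79; 1.08 within batch 2), and then Otof Pax6, at 365, 346, 501 and 642 (0.69; 0.71 within batch 2). None of these 3 subclusters was among the 5 with the most Tafa2.

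The 4 subclusters with lower Tafa2 in nude and BALB/c were Ndst4 Foxp2, Calcr Otx2os1 with Spag16, Pth2r Calcr and Col6a3 Grid2ip. Ndst4 Foxp2 was at 229, 297, 199 and 183 CPM (log2 ratio -0.46, and -0.64 within batch 2). In the others the log2 ratio was -0.34, -0.16 and -0.13. These 3 were the subclusters with the most Tafa2 in the mean of the libraries, and the 5 with the most ran from -0.34 to 0.04. The sign was the same within batch 2 in 21 of 25 subclusters. That ratio reuses C57J 2, nude and BALB/c, so this likeness was in part built in.

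Tafa1 was higher in nude and BALB/c in 7 subclusters, lower in 3, and overlapped in 15. Of the 7227 genes, 24.8% were higher in at least 7 subclusters. The Plekhd1 Sall3 subcluster had the lowest log2 ratio, -1.18, at 205, 160.5, 128 and 33.3 CPM, and here BALB/c was far below nude. The Nts Sst and Chat Dach2 subclusters, where Tafa1 was highest, overlapped between the backgrounds. Tafa5 was higher in 10 subclusters, lower in 1 (Etv1 Ddr2, log2 ratio -0.23) and overlapped in 14, with log2 ratios up to 0.40. At least 10 higher subclusters were found for 12.7% of the 7227 genes. BALB/c exceeded nude for Tafa5 in 25 of 25 subclusters (median log2 ratio of nude to BALB/c -0.27), while nude exceeded BALB/c for Tafa1 in 22 of 25. Subclusters of a library share its preparation, and these counts are no test. The share of all genes this one-sided between the nude and BALB/c libraries is not given here. The counts therefore say nothing particular to Tafa5 or Tafa1.

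**Figure D3:**
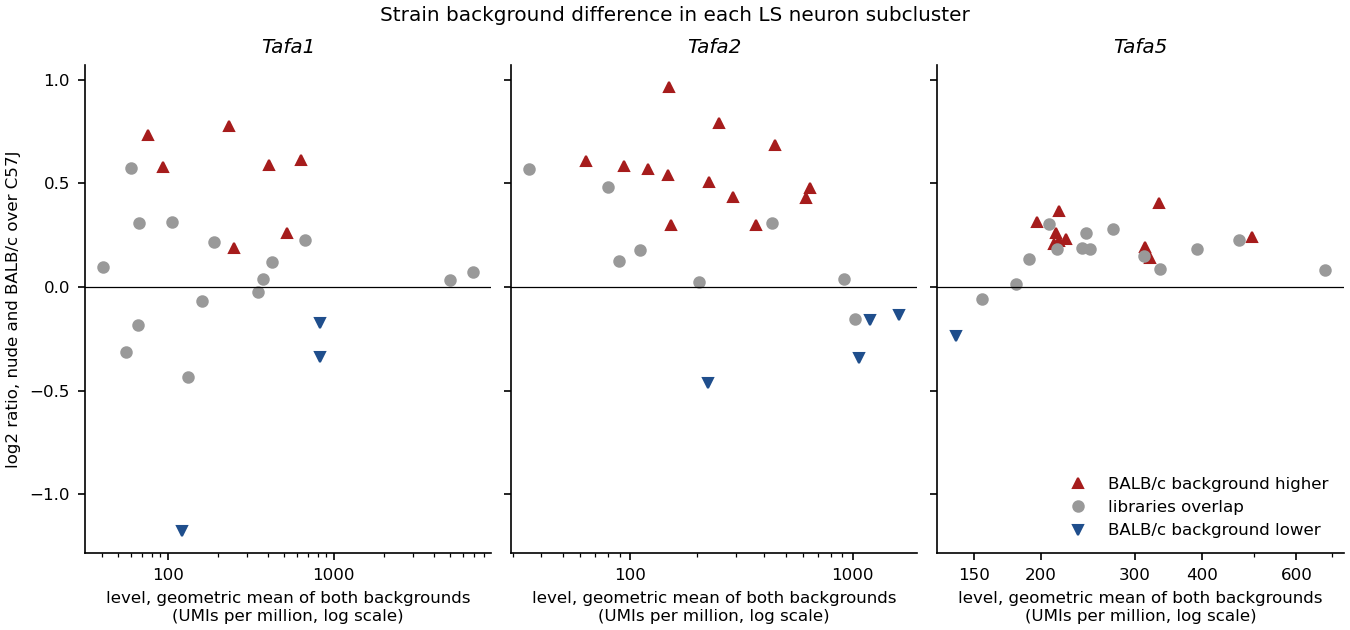
Log2 ratio of the mean level in nude and BALB/c to the mean in C57J (y axis) against the level of the subcluster (x axis, CPM, geometric mean of both backgrounds, log scale), 1 point per LS neuron subcluster. For Tafa2, 3 of the 4 subclusters that were lower in nude and BALB/c lay at the high end of the axis; Tafa5 points stayed between -0.23 and 0.40.

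By edgeR 0 of 4 Tafa genes were called in OPCs, where 0.21% of 10942 genes were, and 2 of the 4 had an unadjusted p under 0.05, as had 796 genes. Tafa2 in OPCs, at 559 and 546 in C57J against 883 in nude and 1011 in BALB/c, had a log2 difference of 0.85 ± 0.17 (SE, adjusted p = 0.104 by edgeR) and 0.79 within batch 2. DESeq2 called it, 1 of 4 members tested (0.86, adjusted p = 0.0392 by DESeq2). The 0.21% is not the DESeq2 share of genes, which is not given here, so this call says nothing particular to Tafa2. Under every setting run, DESeq2 among them, at least 18 genes were called in OPCs. In edgeR fits with 1 library left out, the log2 difference of Tafa2 ran from 0.71 to 0.99. Tafa1 in OPCs, at 501 and 501 against 633 and 1318, had a log2 difference of 1.05 ± 0.30 (adjusted p = 0.413 by edgeR). With 1 library left out, the log2 difference of Tafa1 ran from 0.37 to 1.52, the highest without nude. For both genes nude and BALB/c lay above C57J, as did 12.6% of genes in OPCs, but for Tafa1 the nude library was much nearer to C57J than BALB/c was. Neither order followed the neuron marker sum in OPCs, which was 5998, 6168, 7766 and 5053. Tafa4 (log2 difference 0.01) and Tafa5 (0.10) were close to level.

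In astrocytes, by edgeR, 0 of 3 tested Tafa genes were called, where 0.0709% of 14101 genes were, and 1 had an unadjusted p under 0.05, as had 1056 genes. That gene was Tafa1, at 131 and 165 in C57J against 251 in nude and 228 in BALB/c (log2 difference 0.77 ± 0.18, adjusted p = 0.364 by edgeR). Its libraries did not overlap, as for 11.9% of genes. The astrocyte subtypes split by library. In Lrig1 astrocytes Tafa1 was at 235, 217, 319 and 737 CPM, highest in BALB/c. In Ranbp3l astrocytes it was at 102, 141, 216 and 98.2, highest in nude, and in Dkk3 astrocytes at 128, 184, 288 and 93.2, also highest in nude. The neuron marker sum over all astrocytes was 4104, 5188, 6044 and 2874. The libraries stood in that order for Tafa1 in the Ranbp3l and Dkk3 subtypes and not in the Lrig1 subtype.

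In microglia, by edgeR, 0 of 3 Tafa genes were called, where 0% of 9024 genes were, and 1 had an unadjusted p under 0.05, as had 431 genes. It was Tafa2, at 122 and 186 against 355 in nude and 341 in BALB/c (log2 difference 1.21 ± 0.34, adjusted p = 0.711 by edgeR). Its libraries did not overlap, as for 13.6% of genes. The neuron marker sum in microglia was highest in nude (8874) and lowest in BALB/c (3611), so Tafa2 in BALB/c microglia did not move with it. In oligodendrocytes 0 of 3 were called and 0 had an unadjusted p under 0.05 by edgeR, where 0.0079% of 12652 genes were called and 648 had such a p. In other neurons 0 of 4 were called and 1 had an unadjusted p under 0.05, where 0.854% of 16856 genes were called and 2205 had such a p. DESeq2 called 0 Tafa genes in astrocytes, microglia, oligodendrocytes and other neurons.

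The smaller classes gave no call either. By edgeR 0 of 3 Tafa genes were called in neuroblasts, where 0.0286% of 7004 genes were, and 1 had an unadjusted p under 0.05, as had 402 genes. In endothelial nuclei 0 of 3 were called by edgeR, where 0.0122% of 8192 genes were, and 0 had an unadjusted p under 0.05, against 217 genes. In dividing nuclei 0 of 3 were called by edgeR, where 0% of 4853 genes were, and 1 had an unadjusted p under 0.05, as had 266 genes.

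**Figure D4:**
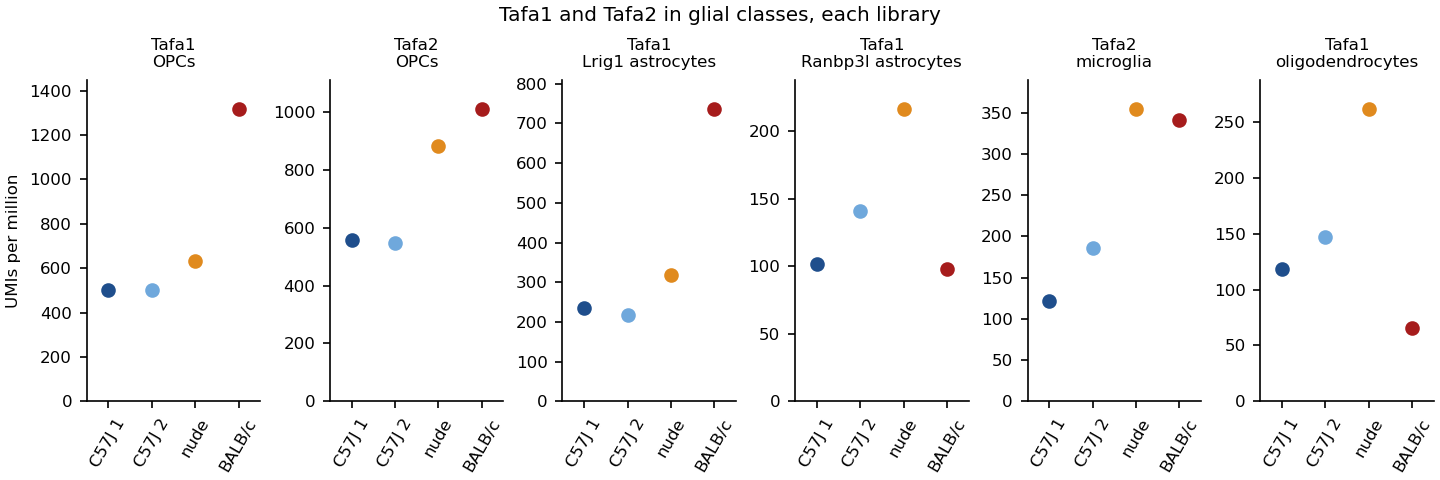
Level (y axis, CPM, from 0, a separate scale per panel) of Tafa1 or Tafa2 in each library (x axis, 1 point per library) for OPCs, microglia, oligodendrocytes and 2 of the astrocyte subtypes. BALB/c was highest for Tafa1 in OPCs (1318) and Lrig1 astrocytes (737) but lowest in oligodendrocytes (66.0) and Ranbp3l astrocytes (98.2).

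Of 10 receptor and partner genes listed, 9 were in the matrices. The neurexin gene Nrxn3 was at 9341 ± 124 CPM in LS neurons. The subcluster with the most Tafa1, Nts Sst, also had the most Nrxn3 (12658 ± 590.4) and Chat Dach2 came next (11653 ± 218), on the same scale. The TAFA1 receptor gene Gpr1 was at 5.22, 5.51, 5.84 and 4.51 in LS neurons (5.27 ± 0.564, n = 4). S1pr2, a TAFA5 receptor gene, was at 0.667 ± 0.103 in LS neurons and at 10.1, 10.1, 10.5 and 23.4 in OPCs. Lrrc4b, another of the listed partner genes, was at 63.6 ± 0.80 in LS neurons and 112 ± 8.82 in OPCs. Lrp1, an endocytic receptor gene, was at 65.3 ± 3.198 in LS neurons, 255 ± 8.09 in OPCs and 334 ± 51.3 in microglia.

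The formyl peptide receptor genes Fpr1 and Fpr2, known from myeloid cells, were the partners that differed between backgrounds. By edgeR 2 of 9 were called in LS neurons, against the 2.19% of genes given above. Fpr1 was at 0.684, 0.826, 3.76 and 2.15 CPM, a log2 difference of 1.98 ± 0.35 (adjusted p = 0.0435 by edgeR). Fpr2 was at 0.470, 0.275, 2.01 and 1.75, a log2 difference of 2.32 ± 0.35 (adjusted p = 0.0261 by edgeR). Both were higher in nude and BALB/c with no overlap, and DESeq2 called both. These levels rested on 32, 30, 166 and 130 UMIs for Fpr1 and on 22, 10, 89 and 106 for Fpr2. Microglia held 1 Fpr1 UMI and 2 Fpr2 UMIs over all libraries. The Fpr1 call stayed the same in 10 of 13 alternative settings and the Fpr2 call in 10 of 12. Neither call held without nude (adjusted p = 0.171 for Fpr1 and 0.126 for Fpr2 by edgeR) or without BALB/c (0.0795 and 0.162), although the log2 differences stayed at 1.56 to 2.42. They are neighbouring genes of similar sequence on chromosome 17, and the assignment of reads to each of them was not tested. Of the partners tested in each of the other 8 classes, 0 were called by edgeR; Fpr2 in other neurons came nearest (log2 difference 2.56, adjusted p = 0.0551 by edgeR).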

How the data were processed

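Nuclei of dissected LS tissue were profiled with the 10x Genomics droplet assay in 4 libraries. The authors deposited, per library, a matrix of whole-number UMI counts over 32285 genes, made with Cell Ranger 7.0.1 on mm10 per the submitters' processing notes, with no normalization. Nuclei with over 200 and under 6000 genes, over 300 and under 50000 UMIs and under 2% mitochondrial UMIs were kept, and doublets were removed: the highest scores against simulated doublets in each library, at an expected rate that grows with the number of nuclei. All nuclei were clustered with Leiden (leidenalg 0.10.2, scanpy 1.11.5) on 3000 variable genes and 40 components, without 14 Tafa and partner genes, 6 sex-linked genes and 326 genes whose level set the strain backgrounds apart in at least 2 coarse cell types, and neurons were clustered again within themselves. Clusters were named from marker lists, and 123 nuclei were left out. UMIs were summed per library and class and tested with edgeR 4.0.16 (quasi-likelihood, TMM, Benjamini-Hochberg over all genes tested), in 2 C57J libraries against nude and BALB/c; interactions kept the library as a block. DESeq2 1.42.0 was an alternative. Scripts were tested on simulated counts. The members and lists were chosen with earlier results of these data known. The genes named were the 5 members, 10 listed receptors and partners, and for each member the 3 genes most correlated with it over neuron groups. Each library pooled 3 mice, so p-values do not measure the spread between single mice. The spread within C57J includes the batch difference, and that of the other group includes nude against BALB/c. In the interactions, with the library as a block, p-values measure the spread of subclusters or classes within libraries. Total UMI counts of 72912922 to 125998527 per library set the precision, and intervals are exact binomial.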

Additional observations from a re-analysis of the deposited data

Results flagged for a closer look

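The background difference of Tafa2 differed between the 25 LS neuron subclusters by a test of the difference itself (edgeR, subcluster by background interaction, adjusted p = 0.000224). The log2 ratio of nude and BALB/c to C57J ran from -0.46 in the Ndst4 Foxp2 subcluster to 0.96 in the Nts Etv1 subcluster. The mean was higher in nude and BALB/c in 20 subclusters and lower in 5. As given above, the test passed only with both C57J libraries.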

How the results depend on the processing

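In LS neurons, the background differences of Tafa1, Tafa2, Tafa4 and Tafa5 kept their sign and stayed without a call under every alternative run, and the log2 ratio of LS neurons to astrocytes stayed within 1 SD of its mean for all of them; thinned Tafa4 gave no ratio, since BALB/c astrocytes had 0 UMIs. The subcluster by background interaction of Tafa1 passed with no filter on low counts (adjusted p = 8.34e-38) and thinned (0.00180), and ran from 8.30e-11 to 1 with each library left out. That of Tafa2 ran from 6.93e-13 to 0.252. The class by background interaction, refitted without each library as an alternative chosen after seeing the data, ran from 1.06e-06 to 1 for Tafa1, 7.56e-06 to 1 for Tafa2 and 0.00922 to 1 for Tafa5, with the lowest value without nude each time. Leaving out 1 library turned the sign of several uncalled log2 differences: Tafa4 in other neurons (-0.25 to 0.58), Tafa2 in astrocytes (-0.91 to 0.82), Tafa5 in astrocytes (-0.073 to 0.16), Tafa1 in oligodendrocytes (-0.87 to 0.98), Tafa2 in oligodendrocytes (-0.90 to 0.77), Tafa5 in oligodendrocytes (-0.11 to 0.39), Tafa4 in OPCs (-0.29 to 0.26), Tafa5 in OPCs (-0.041 to 0.23), Tafa1 in microglia (-0.91 to 0.66) and Tafa5 in microglia (-1.23 to 0.036). Tafa1 in microglia was also at -0.028 under stricter quality limits. A background left with 1 library is assumed to vary like the other, and the cause of these changes was not tested. Genes called in LS neurons numbered 411, against 656 by DESeq2, 1003 with no filter, 198 thinned and 99 to 1481 with 1 library left out. In other neurons 144 became 395, 1099, 43 and 36 to 861, and 232 with doublets kept. In astrocytes 10 became 92, 454, 0 and 0 to 1727. In oligodendrocytes 1 became 75, 250, 8 and 0 to 977, with 8 when doublets were kept and 9 under those limits. In OPCs 23 became 179 with no filter, 43 with doublets kept and 36 to 418 with 1 library left out. In microglia 0 became 15 by DESeq2, 84 with no filter, 13 with doublets kept and up to 515 without nude. Tafa3 entered no fit. No paired analysis was possible because only the C57J libraries carry a replicate number in the labels. Depth limits Tafa4 most, since its levels rest on 249 to 479 UMIs per library.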
